A study of Mus musculus with 7 samples.

Results

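Dual specificity phosphatases that act on MAP kinases are described here in mouse endometrial epithelium through 8 genes: DUSP1, DUSP4, DUSP5, DUSP6, DUSP8, DUSP10, DUSP14 and DUSP16, written from here on as the mouse symbols Dusp1, Dusp4 and so on. They were taken by symbol from the 24353 genes of the deposited table, and a further 18 family members in that table serve as a comparison. The 8 were chosen by their FPKM in these same libraries, with the differences between the treatments already known, so their levels and differences are descriptions. Where one of them is said to be called, this gives only its side of the threshold in the fit over all genes, and nothing is read from the calls or their counts in any comparison. RNA came from the uterine horns of C57BL/6 females whose ovaries were removed at 6 to 7 weeks, and every group, controls included, lacked ovaries. Mice received vehicle, tamoxifen at 0.5 mg per day under the skin, or the same tamoxifen with oral alpelisib at 30 mg/kg per day, for 28 days, with 6 mice randomized to each arm. A further 2 mice carried a 60-day release pellet of 0.01 mg estradiol for the same 28 days. Sequencing covers 7 libraries: 1 of vehicle, 2 of estradiol, 2 of tamoxifen and 2 of tamoxifen plus alpelisib, the combined treatment. The sources used here do not say whether the vehicle library is 1 mouse or a pool, nor how the epithelial cells were separated.

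Dual specificity phosphatases that act on MAP kinases remove phosphate from both the tyrosine and the threonine of the activation loop of these kinases. Such phosphatases thereby switch ERK, JNK and p38 off. Many of their genes are themselves induced by the kinases that their products inactivate, which makes them negative feedback regulators and common transcript readouts of the pathway. Dusp1, Dusp4 and Dusp5 encode nuclear inducible enzymes, Dusp6 a cytoplasmic enzyme selective for ERK, Dusp8, Dusp10 and Dusp16 enzymes that prefer JNK and p38, and Dusp14 a small atypical enzyme without the kinase-binding domain. Tamoxifen binds the estrogen receptor, blocking it in breast tissue and partly activating it in the uterus. Alpelisib inhibits the alpha isoform of the catalytic subunit of PI3K, and the study asked how tamoxifen engages that pathway in the uterus.

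Promoter sequence was available from RefSeq (GRCm38.p6) for 7 of the 8 genes; Dusp4 has no entry. The 250 bases before the start of each were searched on both strands for 6 motifs: the cAMP response element TGACGTCA, the AP-1 site TGANTCA, the serum response element (CArG box), the ETS site CCGGAAGT, the FOXO site GTAAACA and the palindromic estrogen response element. The 3 promoters that held a match, those of Dusp1, Dusp5 and Dusp8, are shown. Capitals mark the matches, and each sequence runs 5′ to 3′ on the strand of its gene.
Dusp1: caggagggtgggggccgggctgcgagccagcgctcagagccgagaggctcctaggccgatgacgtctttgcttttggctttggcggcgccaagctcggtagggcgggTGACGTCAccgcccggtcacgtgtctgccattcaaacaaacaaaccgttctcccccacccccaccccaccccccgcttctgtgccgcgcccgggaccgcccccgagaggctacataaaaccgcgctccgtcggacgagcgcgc
Dusp5: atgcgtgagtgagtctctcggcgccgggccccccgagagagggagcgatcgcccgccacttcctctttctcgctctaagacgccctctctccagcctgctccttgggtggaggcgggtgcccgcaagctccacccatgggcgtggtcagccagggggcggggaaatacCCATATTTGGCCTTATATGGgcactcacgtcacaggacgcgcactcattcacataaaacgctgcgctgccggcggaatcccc
Dusp8: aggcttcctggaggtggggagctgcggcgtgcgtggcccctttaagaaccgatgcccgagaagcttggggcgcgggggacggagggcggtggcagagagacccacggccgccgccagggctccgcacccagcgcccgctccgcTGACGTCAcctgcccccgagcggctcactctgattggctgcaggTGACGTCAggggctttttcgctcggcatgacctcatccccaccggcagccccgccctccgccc

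The Dusp1 stretch lies at chr17:26508473-26508722 on the minus strand and holds 1 cAMP response element, 143 to 136 bases before the start. At chr19:53528895-53529144 on the plus strand, the Dusp5 stretch holds 2 adjacent CArG boxes, at 82 to 73 and at 72 to 63 bases before the start. The Dusp8 stretch, chr7:142095285-142095534 on the minus strand, holds 2 cAMP response elements, at 107 to 100 and at 63 to 56 bases before the start. Of 32851 promoters of the same length, 1.55% held a cAMP response element and 1.47% a CArG box; the AP-1, ETS, FOXO and estrogen response motifs were in 6.75%, 2.88%, 3.17% and 0.0639%. None of the 6 motifs was matched in these 250 bases for Dusp6, Dusp10, Dusp14 and Dusp16. A match describes the letters of this window only, and factor binding was not measured.

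Levels are in FPKM, fragments counted per kilobase of transcript and per library size, so they can be set side by side between genes. Depth is not stated in the sources used here; the smallest steps in 3093 genes with 1 transcript put it near 16.2 to 18.6 M fragments in 6 libraries, and could not be read in estradiol 2. The lowest of the members in tamoxifen 1, Dusp10, then rests on about 35.9 fragments per kilobase. Epithelial markers summed to 3005 to 7641 FPKM over the 7 libraries, far above those of stroma (119 to 306), endothelium (2.74 to 26.7), smooth muscle (6.20 to 73.5) and leukocytes (33.5 to 101), with no marker at 0 in every library. With tamoxifen Itgam alone was at 51.5 and 56.0 FPKM and Ptprc at 0.0612 and 0.0996, so the leukocyte sum does not speak for each marker. Erythroid markers summed to 36.2 FPKM in vehicle, 89.1 and 129.9 with estradiol, 1535 and 1116 with tamoxifen, and 292 and 312 with the combined treatment. The ribosomal RNA precursor Rn45s stood apart in estradiol 2, at 2276 FPKM against 189 to 764 in the other 6 libraries.

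All 8 genes reached 1 FPKM in every library and all entered the fit. Summed over the 8, the level was 723 FPKM in vehicle, 253 and 187 with estradiol, 257 and 489 with tamoxifen, and 866 and 918 with the combined treatment. Dusp1 and Dusp5 together made up 77.4% to 91.0% of that sum in every library. Dusp5 was the most abundant in vehicle, with 57.7% of the sum, and Dusp1 was the most abundant in each of the 6 treated libraries. The fold between the highest and the lowest of the 7 libraries ran from 3.46 for Dusp6 to 16.1 for Dusp8, with Dusp5 next at 14.3; on the log2(FPKM + 1) scale Dusp5 spanned more than Dusp8, 3.79 against 3.53.

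**Figure D1:**
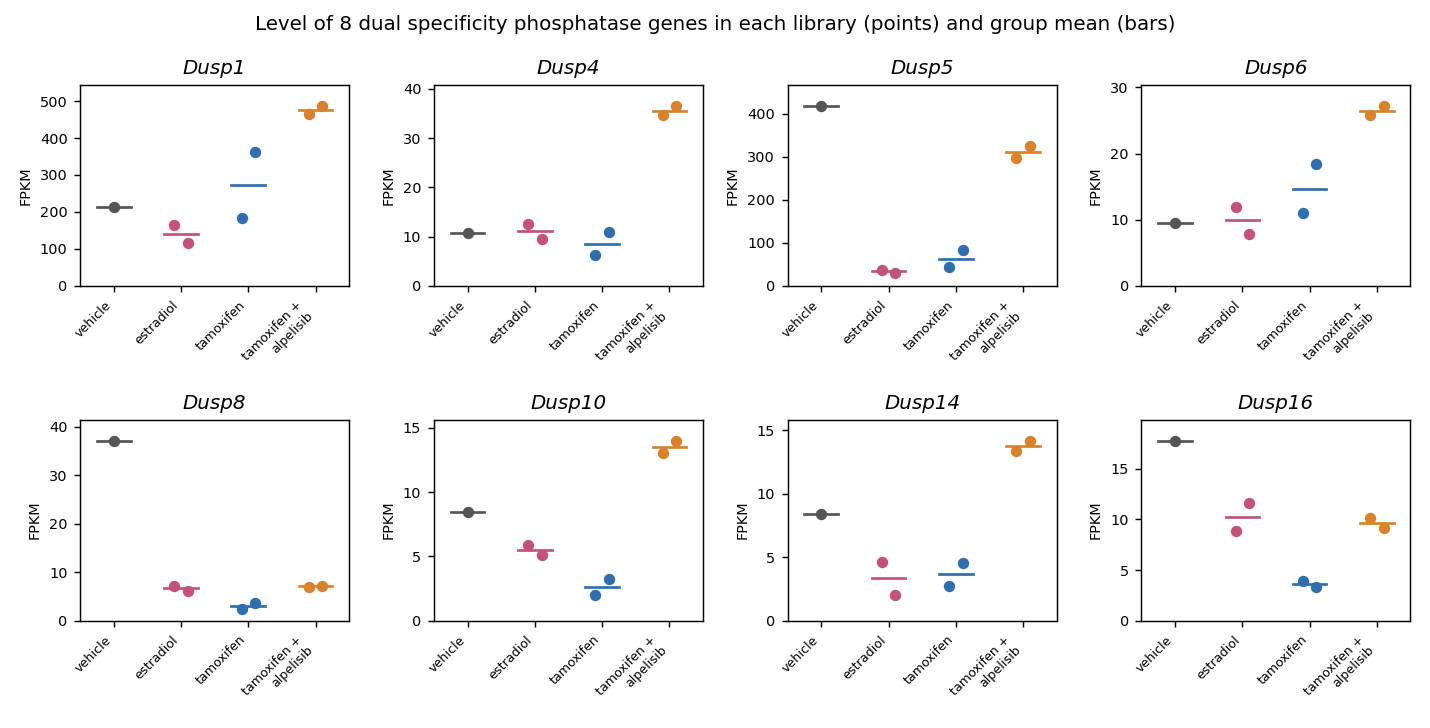
FPKM of each of the 8 genes (vertical axes, linear from 0) in the 7 libraries by group; points are libraries, replicate 1 left of replicate 2, and bars are group means. Both tamoxifen plus alpelisib libraries lie above both tamoxifen libraries for all 8 genes, and vehicle is the highest library for Dusp5, Dusp8 and Dusp16.

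Dusp1 encodes an immediate early nuclear phosphatase of p38, JNK and ERK. Its level was 214 FPKM in vehicle, 164 and 115 with estradiol, 185 and 363 with tamoxifen, and 464 and 485 with the combined treatment. The combined treatment was the highest group at 475 ± 14.9 FPKM (SD, n = 2) and estradiol the lowest at 139.6 ± 34.3 (SD, n = 2), while the 2 tamoxifen libraries fell on either side of vehicle. Tamoxifen (274 ± 126, SD, n = 2) and vehicle therefore were neighbours that did not differ beyond the spread of the tamoxifen libraries. Dusp1 overlaps Ergic1 on the opposite strand, and whether counting used strand was not given; Ergic1 itself reached at most 38.8 FPKM.

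Dusp4 encodes another inducible nuclear phosphatase, of ERK and JNK. It stood at 10.7 FPKM in vehicle, 12.6 and 9.502 with estradiol, 6.31 and 10.9 with tamoxifen, and 34.7 and 36.4 with the combined treatment. The vehicle value lay inside the range of the estradiol libraries and inside that of the tamoxifen libraries, so these 3 groups overlapped. The combined treatment stood apart from them all, at 35.6 ± 1.22 FPKM (SD, n = 2), which is 4.14 times the tamoxifen mean and 3.24 and 3.40 times vehicle.

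Dusp5 encodes a nuclear phosphatase selective for ERK, which it also anchors in the nucleus. Its level was 417 FPKM in vehicle, 37.9 and 29.2 with estradiol, 43.6 and 82.6 with tamoxifen, and 298 and 325 with the combined treatment. Vehicle was the highest library, the combined treatment came next at 0.714 and 0.779 times vehicle, and both single treatments were far below. Tamoxifen libraries stood at 0.105 and 0.198 times vehicle and estradiol libraries at 0.0908 and 0.0701 times, without overlap between the 2 groups. The mean with the combined treatment, 311 ± 19.1 FPKM (SD, n = 2), was 4.94 times the tamoxifen mean of 63.1 ± 27.5 (SD, n = 2). On the opposite strand lies the gene AC137853.2, for which the data list no level under that name.

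Dusp6 encodes the cytoplasmic phosphatase of ERK and is often read as a transcript marker of ERK activity. It was at 9.55 FPKM in vehicle, 11.99 and 7.83 with estradiol, 11.1 and 18.4 with tamoxifen, and 25.8 and 27.1 with the combined treatment. The estradiol libraries lay on either side of vehicle and the lower tamoxifen library lay inside the estradiol range, so the order of these 3 groups is within their spread. The combined treatment was above every other library, at 26.5 ± 0.942 FPKM (SD, n = 2), or 1.80 times the tamoxifen mean.

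Dusp8 encodes a phosphatase that prefers JNK and p38. It was at 37.0 FPKM in vehicle, 7.12 and 6.16 with estradiol, 2.30 and 3.54 with tamoxifen, and 6.86 and 7.24 with the combined treatment. Vehicle was far above all treated libraries and tamoxifen was the lowest group, at 0.0621 and 0.0956 times vehicle. Estradiol (6.64 ± 0.685, SD, n = 2) and the combined treatment (7.05 ± 0.270, SD, n = 2) overlapped, so the higher level beside tamoxifen alone still left Dusp8 at 0.185 and 0.196 times vehicle. Gm32786 overlaps Dusp8 on the opposite strand, and the data list no level under that name.

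Dusp10 encodes another phosphatase of JNK and p38. Its level was 8.47 FPKM in vehicle, 5.93 and 5.11 with estradiol, 2.02 and 3.23 with tamoxifen, and 13.0 and 14.0 with the combined treatment. No 2 groups overlapped: the combined treatment was the highest, then vehicle, estradiol and tamoxifen. The ratio of the combined treatment (13.5 ± 0.666, SD, n = 2) to tamoxifen (2.62 ± 0.858, SD, n = 2) was 5.15, above that of each of the other 7 genes.

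Dusp16 encodes a phosphatase that shuttles between nucleus and cytoplasm and acts on JNK and p38. It was at 17.7 FPKM in vehicle, 8.90 and 11.7 with estradiol, 3.88 and 3.30 with tamoxifen, and 10.1 and 9.17 with the combined treatment. Vehicle was the highest library and tamoxifen the lowest group, at 0.219 and 0.186 times vehicle. Both libraries of the combined treatment fell inside the range of the estradiol libraries, at 0.570 and 0.517 times vehicle.

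Dusp14, the atypical member, was at 8.39 FPKM in vehicle, 4.64 and 1.9999 with estradiol, 2.76 and 4.55 with tamoxifen, and 13.4 and 14.1 with the combined treatment. Both tamoxifen libraries lay inside the estradiol range, and all 4 of these libraries were below vehicle. The combined treatment stood above every other library, at 13.8 ± 0.518 FPKM (SD, n = 2), which is 3.76 times the tamoxifen mean.

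Set against vehicle, the genes showed a few patterns. With tamoxifen plus alpelisib, Dusp1, Dusp4, Dusp6, Dusp10 and Dusp14 were above vehicle and above all 5 other libraries, while Dusp5, Dusp8 and Dusp16 remained below vehicle. Neither tamoxifen library exceeded vehicle for Dusp5, Dusp8, Dusp10, Dusp14 and Dusp16, both did for Dusp6, and they lay on either side of it for Dusp1 and Dusp4. All ratios to vehicle share the same single library.

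**Figure D2:**
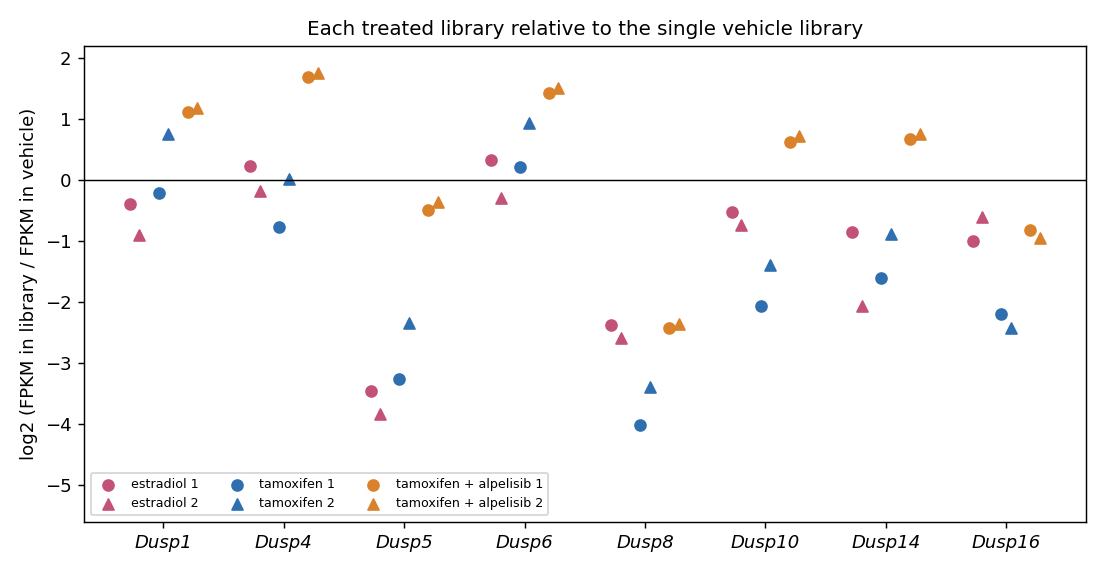
Log2 of the FPKM in each treated library over the FPKM in the vehicle library (vertical axis, 0 is equal to vehicle) for the 8 genes; circles are replicate 1, triangles replicate 2. Tamoxifen plus alpelisib is above 0 for 5 genes and below it for Dusp5, Dusp8 and Dusp16.

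Differences between groups were fitted for all 12314 genes at 1 FPKM or more in at least 1 library, on the log2(FPKM + 1) scale, which understates the changes of low genes. A gene is called where its Benjamini-Hochberg adjusted p from limma is under 0.05. Tamoxifen was compared with vehicle to ask what the drug does without ovaries. Dusp8 was lower by 3.30 ± 0.22 (SE) on the log2 scale, Dusp5 by 2.78 ± 0.38, Dusp16 by 2.03 ± 0.20 and Dusp10 by 1.41 ± 0.23. These 4 of the 8 genes were called, where 39% of all genes tested were called (24.1% lower and 14.9% higher). The 4 that were not called had log2 differences of −1.04 ± 0.40 (Dusp14), −0.33 ± 0.31 (Dusp4), 0.27 ± 0.43 (Dusp1) and 0.54 ± 0.34 (Dusp6). The sign for Dusp1 turned to −0.22 without tamoxifen 2, and that for Dusp4 to 0.02 without tamoxifen 1, while Dusp14 was called without either estradiol library. Both tamoxifen libraries were below vehicle for 5 of the 8, against 50.3% of all genes, and above it for 1, against 36.9%. The median difference over the 8 was −1.22, beside −0.12 over all genes tested.

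Cell type markers, those of epithelium included, differed between the same libraries. Stromal markers summed to 306 FPKM in vehicle and to 125 and 119 with tamoxifen, with 10 of 11 tested lower and 1 higher; Pdgfra was at 1.75 against 0.463 and 0.415. Endothelial markers summed to 26.7 against 3.79 and 3.34, with 7 of 9 lower, and Pecam1 was at 2.68 against 0.0977 and 0.109. For smooth muscle the sums were 73.5 against 22.5 and 19.9, with 5 of 6 lower, and all 5 erythroid markers tested were higher. Leukocyte markers summed to 33.5 against 74.9 and 91.4, with 2 of 8 higher and 1 lower. Itgam was at 0.406 against 51.5 and 56.0, and Lyz2 at 13.7 against 1.66 and 2.29. Epithelial markers summed to 7491 against 5212 and 7008, with 2 of 12 higher and 3 lower. Among them Krt18 was at 1542 against 403 and 463, and Krt7 at 197 against 920 and 1030. Their part in the differences of the 8 genes was not tested, and in bulk RNA fewer cells of a type and less RNA per cell cannot be told apart.

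Estradiol was compared with the same vehicle library. Dusp5 was lower by 3.61 ± 0.38 (SE) on the log2 scale, Dusp8 by 2.32 ± 0.22 and Dusp16 by 0.74 ± 0.20, and these 3 of 8 were called beside 35.5% of all genes (12.8% lower and 22.7% higher). Dusp14 differed by −1.19 ± 0.40, Dusp1 by −0.64 ± 0.43 and Dusp10 by −0.54 ± 0.23, and none of these was called. Dusp4 (0.03 ± 0.31) and Dusp6 (0.02 ± 0.34) were close to vehicle, and their sign turned both with size factors and without estradiol 1. Both estradiol libraries were below vehicle for 6 of the 8, against 34.5% of all genes, and above it for 0, against 48.8%. The median over the 8 was −0.69, and over all genes 0.12. The call of Dusp16 was lost without estradiol 1, at −0.56, and without either tamoxifen plus alpelisib library, while Dusp14 was called without estradiol 1, at −1.65. Smooth muscle markers summed to 9.19 and 6.20 with estradiol, against 73.5 in vehicle, with 6 of 6 lower. Epithelial markers summed to 3618 and 3005, against 7491, with 4 of 12 lower and 1 higher. Among them Krt8 was at 839 and 769 FPKM, against 2295 in vehicle, while Epcam was at 234 and 202, against 206. Of the other marker lists, 4 of 8 leukocyte markers were higher, 4 of 9 endothelial markers lower, 3 of 11 stromal markers higher and 4 lower, and 2 of 5 erythroid markers higher. Rn45s was at 764 and 2276 FPKM with estradiol, against 240.3 in vehicle. Their part was not tested.

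The comparison of tamoxifen plus alpelisib with tamoxifen asks what PI3K alpha inhibition changed under the same tamoxifen dose. Dusp5 was higher by 2.35 ± 0.31 (SE) on the log2 scale, Dusp10 by 2.02 ± 0.19, Dusp4 by 1.97 ± 0.25, Dusp14 by 1.69 ± 0.32, Dusp16 by 1.21 ± 0.17 and Dusp8 by 1.06 ± 0.18. These 6 of the 8 were called, all higher, where 11.7% of all genes tested were called (6.93% higher and 4.81% lower). Dusp1 (0.87 ± 0.35) and Dusp6 (0.84 ± 0.27) were also higher but not called. For all 8 genes both libraries of the combined treatment were above both tamoxifen libraries, against 30.2% of all genes. The median over the 8 was 1.45, and over all genes −0.03.

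Calls in this comparison rest on few libraries. Without tamoxifen plus alpelisib 1, or without tamoxifen plus alpelisib 2, 0 of the 8 were called, although 6 had an unadjusted p under 0.05 in limma and the median over the 8 was 1.44 and 1.47. Over all genes the same omissions left 18 and 14 calls, from 1445. Leaving out tamoxifen 1 kept 3 of the 6 calls, losing Dusp8, Dusp14 and Dusp16, and leaving out tamoxifen 2 kept 5, losing Dusp14; over all genes 301 and 692 calls were left. The 2 tamoxifen libraries differed for 7 of the 8 genes in the same direction: tamoxifen 2 was 1.54 to 1.96 times tamoxifen 1 for all but Dusp16 (0.849), beside a median of 1.10 over all genes. Between the libraries of the combined treatment the ratio ran from 0.907 to 1.09, around a median of 1.03.

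Erythroid markers were lower with the combined treatment (292 and 312 FPKM, against 1535 and 1116; 3 of 5 tested were called lower), and smooth muscle markers as well (17.0 and 18.1, against 22.5 and 19.9; 4 of 6 lower). Among smooth muscle markers Acta2 was at 1.78 and 1.27 FPKM, against 5.89 and 5.43, while Tagln was at 13.5 and 14.9, against 9.83 and 8.40. Stromal markers summed to 182 and 188, against 125 and 119, with 3 of 11 higher and 1 lower. Dcn was at 86.8 and 93.1 FPKM, against 31.7 and 30.9, while Col1a1 was at 2.19 and 2.23, against 3.26 and 3.05. The smooth muscle and stromal sums thus do not speak for each marker. Epithelial markers summed to 7060 and 7641, against 5212 and 7008, with 1 of 12 higher, and Epcam was at 268 and 288 FPKM against 226 and 289. Endothelial markers summed to 2.74 and 3.68 FPKM, against 3.79 and 3.34, so the sums overlapped, with 2 of 9 called lower and 0 higher. Of leukocyte markers 1 of 8 was lower. Rn45s was at 205 and 189 FPKM, against 530.4 and 229.5. The part of these differences in those of the 8 genes was not tested.

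**Figure D3:**
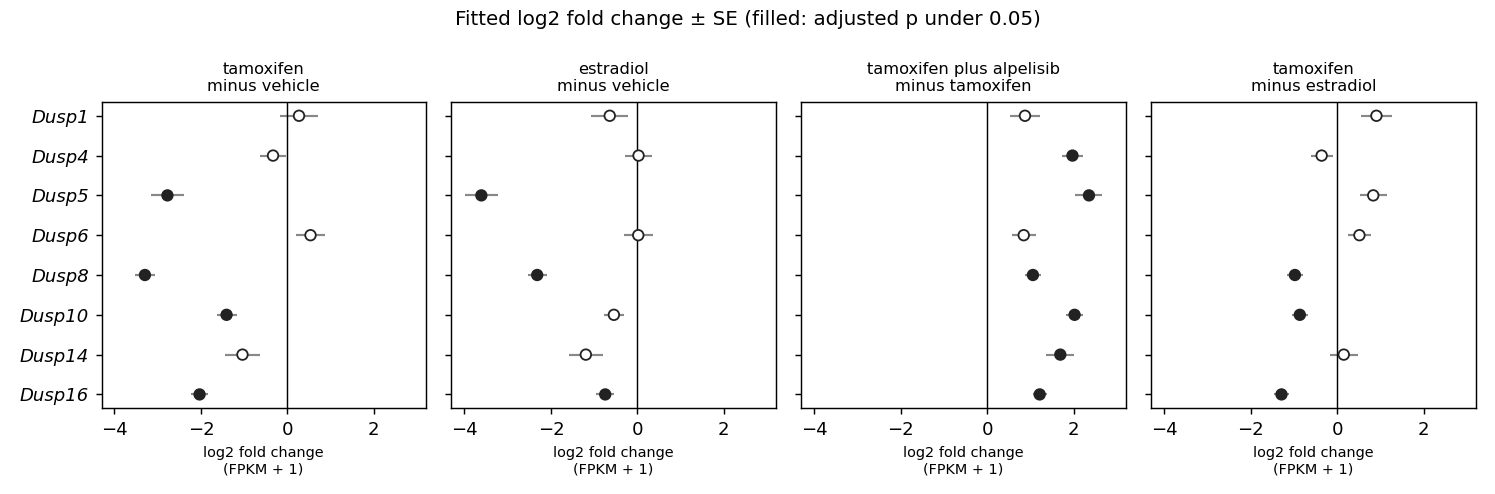
Fitted log2 differences (horizontal axes, log2(FPKM + 1)) with bars of 1 SE for the 8 genes in the 4 comparisons; filled points are called at an adjusted p under 0.05. In the third panel all 8 points are above 0, and in the first the called points, Dusp5, Dusp8, Dusp10 and Dusp16, are below 0.

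Tamoxifen and estradiol were compared directly, as 2 ligands of the estrogen receptor in mice without ovaries. Dusp16 was lower with tamoxifen by 1.29 ± 0.17 (SE) on the log2 scale, Dusp8 by 0.98 ± 0.18 and Dusp10 by 0.86 ± 0.19, and these 3 of 8 were called beside 48.5% of all genes (36.2% lower and 12.3% higher). Dusp1 (0.91 ± 0.35), Dusp5 (0.83 ± 0.31) and Dusp6 (0.51 ± 0.27) had positive differences that were not called, and the libraries of Dusp6 overlapped. Dusp4 (−0.36 ± 0.25) and Dusp14 (0.15 ± 0.32) had overlapping libraries, and the value of Dusp14 turned to −0.30 without estradiol 2 and to −0.13 without tamoxifen 2. Both tamoxifen libraries were above both estradiol libraries for 2 of the 8, Dusp1 and Dusp5, against 21% of all genes, and below them for Dusp8, Dusp10 and Dusp16, against 50.8%. The median over the 8 was −0.10, beside −0.26 over all genes. Markers of other cell types differed too: with tamoxifen 7 of 11 stromal markers were lower and 1 higher, 8 of 9 endothelial markers were lower, 6 of 8 leukocyte markers were lower and 1 higher, and 6 of 6 smooth muscle and 5 of 5 erythroid markers were higher. Epithelial markers gave 4 higher and 1 lower of 12, and Rn45s was at 764 and 2276 FPKM with estradiol, against 530.4 and 229.5; their part was not tested.

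This comparison depended on scaling. With median-of-ratios size factors the median of all genes moved from −0.26 to 0.01, and the called genes from 1519 higher and 4458 lower to 2950 higher and 2684 lower. Under that scaling Dusp1 (1.27), Dusp5 (1.19) and Dusp6 (0.84) were called higher with tamoxifen, and 6 of the 8 were called in all. Leaving out tamoxifen 1 gave 5 calls, with Dusp1 at 1.39 and Dusp5 at 1.29, leaving out tamoxifen 2 added Dusp4, at −0.71, and the call of Dusp10 was lost without estradiol 1, at −0.77. The same size factors moved the median of all genes from −0.12 to 0.02 for tamoxifen against vehicle (2497 higher and 2525 lower in place of 1838 and 2969) and from 0.12 to −0.00 for estradiol against vehicle (2109 higher and 2250 lower in place of 2793 and 1573). For tamoxifen against vehicle 4 of the 8 were called under either scaling, and for estradiol against vehicle Dusp10 (−0.68) and Dusp14 (−1.30) were then called too. The first 2 comparisons share the vehicle library, and the other two share the tamoxifen libraries with the first.

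Other genes of the family and of the pathway were taken as 5 lists, all chosen with earlier results of these data known. Their counts and adjusted p values are therefore descriptions, and no excess over all genes is read as support. Their counts are to be read against the shares of all genes tested that were called: 39% for tamoxifen against vehicle (14.9% higher, 24.1% lower), 35.5% for estradiol against vehicle (22.7%, 12.8%), 11.7% for the combined treatment against tamoxifen (6.93%, 4.81%) and 48.5% for tamoxifen against estradiol (12.3%, 36.2%). Of the 18 further dual specificity phosphatases, 11 reached 1 FPKM in at least 1 library; Dusp9, Dusp13, Dusp15, Dusp26, Dusp27 and Styxl1 stayed at or below 0.501 FPKM and Dusp21 was listed at 0 throughout. This list is what the choice of the 8 left over, so it was chosen with results known as well. With tamoxifen plus alpelisib against tamoxifen, 0 of the 11 were called by limma and 0 had an unadjusted p under 0.05, and the median difference was −0.09, against −0.03 over all genes; 1 was called with no filter on low values. Against vehicle, tamoxifen was called higher for 1 and lower for 3. Dusp2, an inducible nuclear enzyme of immune cells, fell from 9.18 FPKM to 0.621 and 1.74 (log2 difference −2.27 ± 0.39, adjusted p = 0.00582). With the combined treatment Dusp2 was at 0.791 and 0.696 FPKM, inside the range of the tamoxifen libraries. Styx, a catalytically inactive relative, fell from 2.88 to 1.34 and 1.28 FPKM (−0.75 ± 0.15, adjusted p = 0.0101). Without either tamoxifen plus alpelisib library 2 of these 4 calls were left. With estradiol 3 rose and 2 fell, Dusp28 from 3.91 to 0.757 and 1.04 FPKM (−1.37 ± 0.25, adjusted p = 0.00932); 3 calls were left without estradiol 2 and 2 without either tamoxifen plus alpelisib library. Between tamoxifen and estradiol 1 was higher and 4 were lower, Dusp18 at 0.447 and 0.461 against 1.98 and 2.08 FPKM (−1.06 ± 0.13, adjusted p = 0.00138); 3 calls were left without estradiol 2 or without either tamoxifen library. Size factors gave 1 higher and 1 lower here, and 1 rise and 2 falls for estradiol against vehicle.

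Sprouty and Spred proteins, Errfi1 and Il17rd restrain receptor tyrosine kinases and ERK by other means than the phosphatases. Of 9 such feedback inhibitors 6 were tested, and with tamoxifen plus alpelisib 4 rose and 0 fell against tamoxifen, with a median difference of 0.73. Errfi1, an inhibitor of the EGF receptor, was at 450.3 FPKM in vehicle, 74.0 and 61.8 with estradiol, 57.7 and 87.5 with tamoxifen, and 227 and 234 with the combined treatment. As for Dusp5, vehicle was the highest library and the combined treatment came next. Errfi1 rose by 1.69 ± 0.23 (SE) beside tamoxifen (adjusted p = 0.0104) and fell by 2.65 ± 0.29 with tamoxifen against vehicle (adjusted p = 0.0011). Spry1 rose from 7.69 and 12.2 FPKM to 24.8 and 25.1 (1.28 ± 0.21, adjusted p = 0.0163), beside 24.8 in vehicle. Spred2 (0.79 ± 0.14, adjusted p = 0.0201) rose as well. So did Spry2 (0.68 ± 0.16, adjusted p = 0.0427), a call that was lost in 8 of 14 alternative settings. These 4 calls were 0 without either tamoxifen plus alpelisib library and 2 without either tamoxifen library. Tamoxifen against vehicle gave 1 rise and 3 falls, of which 2 calls were left without either tamoxifen plus alpelisib library, and estradiol against vehicle 1 rise and 2 falls. Tamoxifen against estradiol gave 1 rise and 3 falls, of which 2 calls were left without estradiol 2 and 1 without tamoxifen 2 or either tamoxifen plus alpelisib library, and with size factors it gave 1 rise and 1 fall.

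Transcripts known to respond to ERK were listed separately. Of 21 such genes 19 were tested, and with tamoxifen plus alpelisib 6 rose and 0 fell against tamoxifen, with a median difference of 0.69. Fosl1, an AP-1 subunit, rose from 7.08 and 15.0 FPKM to 63.9 and 67.5 (2.55 ± 0.36, adjusted p = 0.0105), Plaur, the urokinase receptor, from 14.9 and 30.3 to 120.1 and 136 (2.53 ± 0.41, adjusted p = 0.0162). Myc rose from 2.64 and 5.16 FPKM to 15.3 and 18.5 (1.91 ± 0.28, adjusted p = 0.0121), and Epha2, a receptor tyrosine kinase, from 19.4 and 29.3 to 76.3 and 79.1 (1.66 ± 0.22, adjusted p = 0.0091). In vehicle these 4 genes were at 83.5, 232, 45.2 and 88.3 FPKM, in each case above the combined treatment. The other 2 of the 6 were below it in vehicle: Hbegf, an EGF receptor ligand, was at 284 FPKM against 320.5 and 334, and Phlda1 at 196 against 475 and 503. These 6 calls were 0 without either tamoxifen plus alpelisib library, 2 without tamoxifen 1 and 7 without tamoxifen 2. Against vehicle 1 rose and 9 fell with tamoxifen, and 0 rose and 11 fell with estradiol. Ccnd1, which encodes cyclin D1, fell by 2.45 ± 0.19 with tamoxifen against vehicle (adjusted p = 0.000324). With tamoxifen against estradiol the log2 difference of Ccnd1 was −1.24 ± 0.15. Those of Myc and Etv5 were −1.61 ± 0.28 and −1.10 ± 0.18, and all 3 were called. Tamoxifen against estradiol gave 10 rises and 3 falls, Phlda1 among the rises (2.22 ± 0.34, adjusted p = 0.00304); 5 calls were left without estradiol 2 and 8 without either tamoxifen plus alpelisib library, and size factors gave 14 rises and 3 falls.

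Among the kinases upstream of MAP kinases, 18 of 18 were tested. With tamoxifen plus alpelisib against tamoxifen 4 rose and 0 fell: Map3k8 (1.30 ± 0.13, adjusted p = 0.0049), Map3k6 (1.03 ± 0.15, adjusted p = 0.0114), Map2k3, a kinase of p38 (1.65 ± 0.25, adjusted p = 0.013), and Map2k4, a kinase of JNK and p38 (0.50 ± 0.12, adjusted p = 0.0449). These calls were 0 without either tamoxifen plus alpelisib library, 1 without tamoxifen 1 and 3 without tamoxifen 2. With tamoxifen against vehicle 1 rose and 9 fell; Map2k1, a kinase of ERK, rose from 11.0005 FPKM to 46.5 and 55.0 (2.10 ± 0.17, adjusted p = 0.000392), and Map2k6, a kinase of p38, fell by 1.80 ± 0.21 (adjusted p = 0.00137). With estradiol against vehicle 1 rose and 4 fell, of which 3 calls were left without either tamoxifen plus alpelisib library, and between tamoxifen and estradiol 1 was higher and 9 were lower. With size factors the balance of the last comparison was 6 higher and 5 lower, and that of tamoxifen against vehicle 2 higher and 7 lower.

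Of 14 genes of the MAP kinase family, among them those of ERK, JNK and p38, 13 were tested. With tamoxifen plus alpelisib against tamoxifen 1 rose and 0 fell: Mapk6, an atypical MAP kinase, went from 15.9 and 16.3 FPKM to 35.5 and 37.7 (1.13 ± 0.12, adjusted p = 0.00568), and this call was lost without either tamoxifen plus alpelisib library. With tamoxifen against vehicle 2 rose and 1 fell, Mapk13, a p38 isoform of epithelium, from 29.8 FPKM to 85.0 and 130.05 (1.79 ± 0.35, adjusted p = 0.00905), and 1 call was left without tamoxifen 1. Estradiol against vehicle gave 4 rises and 0 falls, of which 2 calls were left without either tamoxifen plus alpelisib library. Tamoxifen against estradiol gave 1 rise and 7 falls, of which 4 were left without estradiol 2 and 5 without either tamoxifen library. With size factors the counts were 2 and 4 there, and 3 rises and 1 fall for tamoxifen against vehicle.

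**Figure D4:**
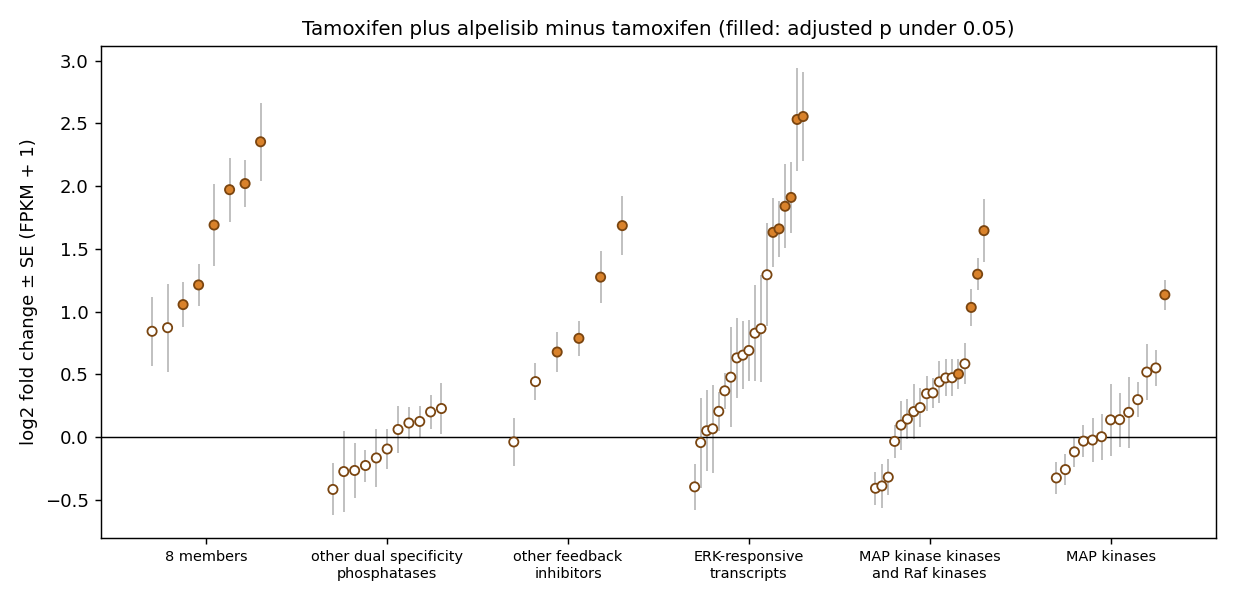
Log2 difference of tamoxifen plus alpelisib minus tamoxifen (vertical axis, log2(FPKM + 1)) with bars of 1 SE for each tested gene, grouped into the 8 genes described and 5 lists; filled points have an adjusted p under 0.05. Filled points are all above 0: 6 of the 8 genes, 0 of 11 other phosphatases, 4 of 6 feedback inhibitors, 6 of 19 ERK-responsive transcripts, 4 of 18 upstream kinases and 1 of 13 MAP kinases.

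Likeness of pattern was measured as the root mean square difference of log2(FPKM + 1), centred on each gene's mean over the 7 libraries; 0 is the same pattern. Among the 8 genes the closest pair was Dusp1 and Dusp6, at 0.238, followed by Dusp4 and Dusp10 (0.384), Dusp4 and Dusp14 (0.418) and Dusp10 and Dusp14 (0.439). The farthest pair was Dusp5 and Dusp16, at 1.35. Dusp1 and Dusp6 both had their lowest level in estradiol 2 and their highest in tamoxifen plus alpelisib 2, although Dusp1 was the more abundant of the pair in every library.

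Across 6325 other genes with a mean of at least 5 FPKM, the nearest to Dusp1 was Zfp36 (0.146), followed by Hist1h1c and Junb. Gtpbp2 was the nearest to Dusp6 (0.119), with Cxcl16 and Ubald2 next, and Plau the nearest to Dusp4 (0.191), with Bnip3 and Proser2 next. For Dusp5 the order was Csf3 (0.212), Emp1 and Fosl1, and Csf3 went from 119 FPKM in vehicle to 8.58 and 7.93 with estradiol, 15.9 and 22.7 with tamoxifen, and 70.0 and 80.5 with the combined treatment. Thbs1 was the nearest to Dusp8 (0.150), before Gsn and Prkci, and Spns2 the nearest to Dusp10 (0.143), before Relb and Plau. Anxa1 was the nearest to Dusp14 (0.164), before Plk2 and Prss22, and Prrg4 the nearest to Dusp16 (0.174), before Acpp and Cdc42ep4. Plau was thus among the 3 nearest genes of both Dusp4 and Dusp10. These are descriptions over 7 libraries that share depth and composition.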

How the data were processed

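The authors deposited 1 table of FPKM values for 7 libraries; CASAVA, Bowtie and Cufflinks are named without versions in the submitters' processing notes. The only build named there is hg19, although the symbols are mouse symbols, so positions are given only for the RefSeq promoters. The unit was read from the values. The 12314 genes that reached 1 FPKM in any library entered limma-trend on log2(FPKM + 1), with 4 group means over 7 libraries, 3 residual degrees of freedom and 3.27 prior ones. P values were Benjamini-Hochberg adjusted within each comparison (threshold 0.05). Vehicle, with 1 library, is assumed to vary like the others. The mice within a group are separate by their labels.

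The members and gene lists were chosen with earlier results of these data known. Named genes were all 8 members, up to 4 genes of lowest adjusted p per list and comparison among those called, some of which are given, and the 3 genes nearest to each member, leaving out predicted models and the 27 names that a spreadsheet turned into dates. Alternatives were size factors, filters, a pseudocount of 0.1, robust empirical Bayes, only the compared groups, each replicate left out and a replicate block. The method was also run on simulated libraries with independent noise and the same spread in every group. That run cannot speak for groups of unequal spread, as seen here for tamoxifen and the combined treatment. R 4.3.3, limma 3.58.1, Python 3.11.15, numpy 2.4.6, pandas 2.3.3 and matplotlib 3.10.9 were used.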

Additional observations from a re-analysis of the deposited data

How the results depend on the processing

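Of the alternatives run on the log2 differences of the 8 genes, 372 kept direction and side of the threshold, 25 lost the call, 11 gained it and 8 changed sign. The changes of sign were all in differences that were not called: Dusp1, tamoxifen against vehicle, −0.22 to 0.75 over the omissions of a tamoxifen library; Dusp4, −0.68 to 0.020 likewise; Dusp4, estradiol against vehicle, −0.12 with size factors and −0.16 to 0.22 over the omissions of an estradiol library; Dusp6, −0.13 and −0.26 to 0.30 in the same settings; and Dusp14, tamoxifen against estradiol, −0.30 without estradiol 2 and −0.13 without tamoxifen 2, within −0.30 to 0.61 over all omissions. The cause was not tested.

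With size factors 5 members in place of 3 were called for estradiol against vehicle and 6 in place of 3 for tamoxifen against estradiol. Only the compared groups in the fit, or no filter, gave 2 for estradiol against vehicle, and no filter gave 4 in place of 6 for tamoxifen plus alpelisib against tamoxifen. Leaving out 1 library gave 4 to 5 members for tamoxifen against vehicle, 2 to 3 for estradiol against vehicle, 0 to 6 for tamoxifen plus alpelisib against tamoxifen and 2 to 5 for tamoxifen against estradiol.

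Among the lists, calls for estradiol against vehicle were, for other phosphatases, 3 with size factors, 3 with a pseudocount of 0.1 and 2 with only the compared groups, in place of 5; in that last fit MAP kinases gave 1 and upstream kinases 3. Feedback inhibitors gave 5 with no filter, in place of 3. For tamoxifen plus alpelisib against tamoxifen, no filter gave 1 other phosphatase, 2 feedback inhibitors and 2 ERK-responsive transcripts, and size factors or only the compared groups gave 2 MAP kinases. For tamoxifen against estradiol, size factors gave 2 other phosphatases and 2 feedback inhibitors, and only the compared groups gave 1 feedback inhibitor. Leaving out 1 library gave, for tamoxifen against vehicle, 2 to 6 other phosphatases, 1 to 3 MAP kinases and 2 to 5 feedback inhibitors. For estradiol against vehicle it gave 2 to 5 other phosphatases, 2 to 4 MAP kinases and 3 to 6 upstream kinases. For tamoxifen plus alpelisib against tamoxifen the ranges were 0 to 1 MAP kinases, 0 to 4 upstream kinases, 0 to 4 feedback inhibitors and 0 to 7 ERK-responsive transcripts. For tamoxifen against estradiol they were 3 to 5 other phosphatases, 4 to 9 MAP kinases, 1 to 4 feedback inhibitors and 5 to 16 ERK-responsive transcripts.

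Over all genes, only the compared groups in the fit gave 1597 calls for estradiol against vehicle, in place of 4366 (2808 and 2837 without tamoxifen plus alpelisib 1 and 2), and no filter gave 870 for tamoxifen plus alpelisib against tamoxifen, in place of 1445. Same-numbered mice of different groups are different mice. The correlation over genes of their deviations from the group means was −0.18 for estradiol and the combined treatment and −0.40 for estradiol and tamoxifen. For the combined treatment and tamoxifen it was 0.27. Each group gives a single difference between its mice, so these values cannot decide whether libraries with the same number belong together. With the number as a replicate block, 5 of the 8 members were called for tamoxifen plus alpelisib against tamoxifen (Dusp14 was lost; 603 genes in all) and 3 for tamoxifen against estradiol.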
